A study of Arabidopsis thaliana with 4 samples.

Results

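Class III peroxidases are secreted plant heme enzymes. They use hydrogen peroxide to couple lignin monomers and other phenols in the cell wall, and they can also make reactive oxygen species that loosen walls or signal. In roots they are known for building the lignin of the endodermal Casparian strip, for root hair growth, and for a switch between cell division and elongation that the transcription factor UPBEAT1 (UPB1) sets by repressing peroxidase genes. The members described here were 59 locus identifiers of the Arabidopsis thaliana family, chosen by name, with PER64 and PRX66 left out. Of these, 47 had a row in the deposited expression matrix of 20511 nuclear genes, and the other 12 were not analysed here.

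The levels come from single-cell libraries of the root ends of 7-day-old seedlings, collected 16 h after removal of the tip, when the stump can start to rebuild it. Wild type (WT) was compared with the lbd6 lbd36 lbd12 lbd15 quadruple mutant of LATERAL ORGAN BOUNDARIES DOMAIN transcription factors (lbd_quad), with 2 libraries per genotype. Both genotypes were cut, so no uncut root is in the comparison, and the digestion into protoplasts (wall-less cells) was shared by all libraries. The 4 libraries held 846 to 5061 cells, 7073293 to 21280667 unique molecular identifiers (UMIs, counts of captured transcripts) and a median of 2090 to 6364 UMIs per cell, with the fewest cells and the deepest cells in lbd_quad replicate 1. Pairs of libraries shared 0 to 3 cell barcodes. Levels below are UMIs per 10000 UMIs of a cell, averaged over the cells of a library. Because 3' ends were counted, they are not set against gene length, and levels of different members are compared only as captured transcripts. The labels do not say whether the 2 libraries of a genotype came from separate plantings, so the p-values measure only the spread between these libraries. Of the 4 mutated genes, LBD12 (ASL5) stood at 2.55 and 1.27 in WT against 0.335 and 0.142 in the mutant, while AS2 (LBD6), LBD15 and ASL1 (LBD36) were under 0.08 in all 4 libraries.

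The promoters of the 5 tested members with the largest positive log2 fold changes in the mutant are shown first. Those of 2 members among the 5 with the largest negative ones follow. Members with a mean under 0.1 UMI per 10000 over the libraries, PER4 (AT1G14540) among them, were not tested and so not ranked. Each sequence is the 250 bases before the annotated start, from RefSeq TAIR10.1, 5′ to 3′ on the strand of the gene. The rows of upstream open reading frames in the deposited matrix carry an Araport11 label, the annotation made on the same TAIR10 chromosomes. Capitals mark TTGAC on either strand, the core of the W-box that WRKY factors bind, and would also mark GCGGCG, a motif bound by LBD proteins. The windows lie at chr5:15849142-15849391 on the minus strand for AT5G39580, chr1:4978672-4978921 on the plus strand for AT1G14550, and chr3:18207401-18207650 on the plus strand for PRXCB (AT3G49120). Those of PRX71 (AT5G64120) and PRX72 (AT5G66390) lie at chr5:25661008-25661257 and chr5:26517600-26517849, both on the minus strand. AT5G17820 and AT4G11290, which were lower in the mutant, have theirs at chr5:5890261-5890510 on the minus strand and chr4:6869613-6869862 on the plus strand.
AT5G39580: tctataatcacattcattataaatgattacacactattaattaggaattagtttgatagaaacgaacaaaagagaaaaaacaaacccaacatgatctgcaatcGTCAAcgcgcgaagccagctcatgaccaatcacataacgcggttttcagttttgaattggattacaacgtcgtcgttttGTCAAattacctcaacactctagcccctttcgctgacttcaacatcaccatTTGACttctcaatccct
AT1G14550: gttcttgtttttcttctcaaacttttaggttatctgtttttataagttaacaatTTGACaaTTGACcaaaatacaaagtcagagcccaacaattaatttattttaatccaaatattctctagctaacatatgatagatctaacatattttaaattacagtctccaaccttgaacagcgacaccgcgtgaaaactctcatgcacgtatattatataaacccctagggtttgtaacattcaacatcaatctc
AT3G49120: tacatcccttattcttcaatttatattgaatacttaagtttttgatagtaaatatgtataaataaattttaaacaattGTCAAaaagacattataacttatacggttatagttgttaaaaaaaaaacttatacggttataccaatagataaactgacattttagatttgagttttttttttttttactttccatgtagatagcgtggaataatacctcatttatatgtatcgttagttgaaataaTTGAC
AT5G64120: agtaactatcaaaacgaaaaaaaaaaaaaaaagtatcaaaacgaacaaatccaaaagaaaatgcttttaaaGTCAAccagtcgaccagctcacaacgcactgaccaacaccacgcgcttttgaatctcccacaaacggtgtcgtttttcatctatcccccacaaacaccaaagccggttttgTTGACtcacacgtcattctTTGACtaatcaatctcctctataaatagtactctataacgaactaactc
AT5G66390: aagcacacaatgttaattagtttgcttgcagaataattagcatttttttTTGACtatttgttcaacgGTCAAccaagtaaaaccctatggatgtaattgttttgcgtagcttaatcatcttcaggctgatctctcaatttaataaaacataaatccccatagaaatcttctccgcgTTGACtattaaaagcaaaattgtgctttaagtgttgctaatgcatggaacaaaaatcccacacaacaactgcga
AT5G17820: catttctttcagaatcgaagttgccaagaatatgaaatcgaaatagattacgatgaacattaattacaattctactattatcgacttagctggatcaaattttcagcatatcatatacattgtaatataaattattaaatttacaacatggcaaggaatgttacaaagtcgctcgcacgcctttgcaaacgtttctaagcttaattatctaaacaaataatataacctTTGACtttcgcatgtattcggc
AT4G11290: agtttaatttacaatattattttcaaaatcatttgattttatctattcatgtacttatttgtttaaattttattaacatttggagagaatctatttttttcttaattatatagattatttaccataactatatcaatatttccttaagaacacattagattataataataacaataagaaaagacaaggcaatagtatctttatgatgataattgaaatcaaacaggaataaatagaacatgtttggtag

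All 5 members of the first group held TTGAC, with 3 copies in AT5G39580, PRX71 and PRX72 and 2 in AT1G14550 and PRXCB. This was not shared by all members whose mutant libraries both lay above both WT libraries. Of the others, PER4 (AT1G14540), AT2G24800, AT5G15180, AT5G64100 and AT5G64110 held 0 copies. AT1G71695 and AT4G36430 held 2, and AT4G08780 and AT5G05340 held 1. Of the 5 members with the largest negative fold changes, 3 held it. Over the whole list 26 of 59 promoters held TTGAC, or 44.1%, against 44.9% of the 27443 promoters of protein-coding genes, a share near that of the genome. GCGGCG was in 0 of the 59 promoters and in 1.56% of all promoters. The E-box CANNTG, read on either strand, was in 34 of 59 members and in 55.3% of all promoters. A match describes the letters in these windows and does not locate a bound factor.

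A few members made up most of the peroxidase transcripts. The 5 members with the most UMIs held 60.5% of the 371975 UMIs of the family, the 15 with the highest mean level held 94.1%, and 9 of the 47 had fewer than 100 UMIs over all cells. AT4G30170 was the most abundant member, with WT libraries at 21.9 and 16.6 UMIs per 10000 and lbd_quad libraries at 12.1 and 15.6. AT2G37130 followed in mean level, then RCI3 (AT1G05260), a peroxidase first described as induced by cold, and AT3G01190. Summed over all 47 members, the family stood at 111 and 79.9 in WT against 61.1 and 76.8 in the mutant. The mutant libraries were the lower pair, and the gap between the nearest 2 libraries was smaller than that between the WT libraries.

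Cells were grouped without any member among the genes that form the clusters, so the cell class in which a member is high is not fixed by the grouping. Of 31 clusters, 13 could be named from markers of 8 classes, and 18 stayed unnamed. The named classes are called endodermis-like, cortex-like and so on. Endodermis-like cells expressed all 11 markers found in the table, CASP1 and MYB36 included, and hair-cell-like cells 10 of 10 in both WT libraries. In root cap-like cells FEZ was at 0 in all 4 libraries and CEL3 at 0 in both lbd_quad libraries, and the summed level of 141 to 234 came mostly from CEP2, at 132 to 208. Pericycle-like cells had 3 of 7 markers raised. Their markers PHO1, SKOR and NPF7.3 were at 0 in WT replicate 1 and at 0.0128, 0.0395 and 0.00336 in WT replicate 2. PHO1;H1 was at 0 in both WT libraries. All of these were at 0 in lbd_quad replicate 1 and at 0.00619 to 0.209 in lbd_quad replicate 2. Of the 29 members above 0.1 UMI per 10000 on average, 21 had over 50% of their summed WT level in 1 of the 7 classes compared. The top class was the same in both WT libraries for 27. These classes leave out the unnamed clusters, which held 57.6% and 53.6% of the WT cells. For 15 of the 29 members, the cluster with the highest level over the cells of all libraries was an unnamed one.

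**Figure D1:**
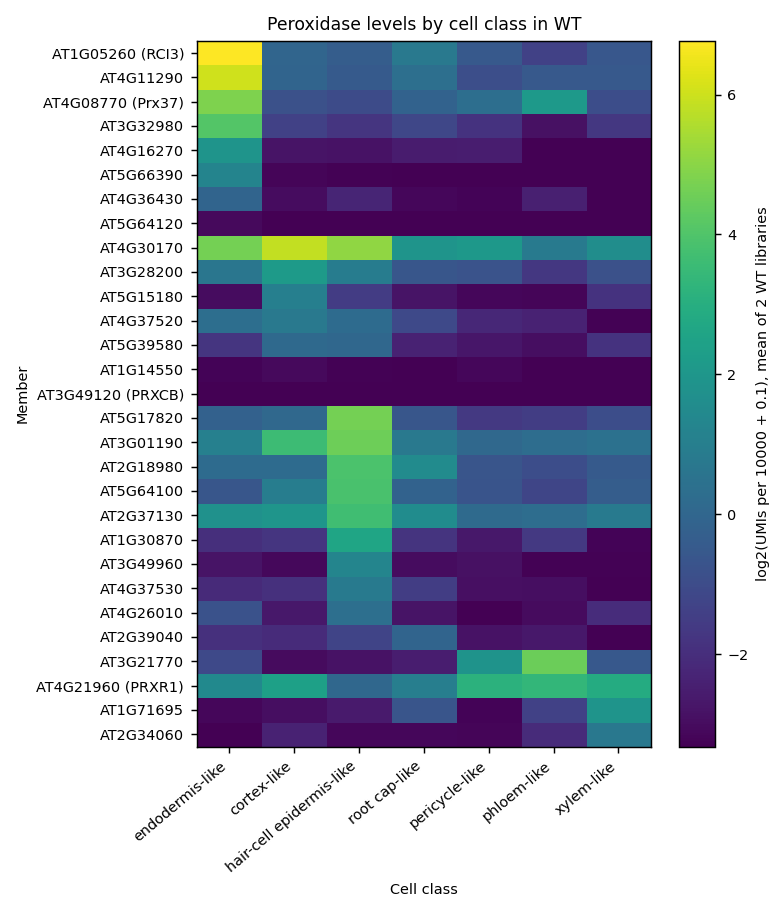
Level of the 29 members with a mean of at least 0.1 UMI per 10000 (rows) in 7 cell classes of WT (columns), as log2(UMIs per 10000 + 0.1) averaged over 2 libraries. Blocks of bright cells mark the endodermal members at the top, led by RCI3, the hair-cell members in the middle and AT3G21770 in phloem-like cells.

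The endodermis held the most peroxidase transcript of the named classes, with a family sum of 266 ± 39.9 UMIs per 10000 in WT and, in the mutant, of 239 ± 58.1 (each SD, n = 2). RCI3 alone stood at 120 and 98.3 in the WT libraries and at 122 and 72.7 in the mutant libraries. Its second class in WT, the root cap, was at 1.59. Endodermis-like cells were set against the mean log2 level of cortex, phloem and root cap, the other classes that reached 20 cells in each library. The log2 difference of RCI3 was 7.57 (SE 0.49; adjusted p 3.11e-09 by limma). AT4G11290, named in work on UPB1 as one of its targets and, with RCI3 and PRX72, in work on lignin of the Casparian strip, was at 78.3 and 52.3 in WT endodermis-like cells and at 48.8 and 31.8 in the mutant. The ranges of the genotypes did not overlap for AT4G11290, but this difference did not pass the test. Prx37 (AT4G08770) was at 30.1 and 25.4 in WT, and AT3G32980 at 18.2 and 15.0.

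AT4G16270, another UPB1 target, was at 4.26 and 2.96 in WT endodermis-like cells, and PRX72 at 1.92 and 2.58. In limma, 11 of 27 tested members were higher in the endodermis than the mean log2 level of the other 3 classes, against 17.3% of all genes tested. The others of the 11 were AT2G38380, AT5G06730, AT4G26010, AT4G36430 and AT4G30170, with log2 differences of 1.72 to 2.22. Although above this mean, AT4G30170 was lower in endodermis-like than in cortex-like cells, with WT means of 25.1 and 57.3. The count of members stayed between 10 and 14 under every alternative run, for which the shares of all genes are not given here.

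The endodermal members did not all follow the same cells. The endodermis-like class joined 2 clusters. Cluster 4 (756 cells) had MYB68 and MYB36 among its leading genes, and cluster 5 (117 cells) had CASP1, CASP2 and ESB1, the scaffold and dirigent proteins of the Casparian strip. PRX72 was nearly confined to cluster 5, where it stood at 49.1 and 28.1 in WT against 25.8 and 32.7 in the mutant. It was at 0.0515 and 0.0485 in WT cells of cluster 4. AT4G16270 lay the other way, at 4.42 and 3.22 in WT cells of cluster 4 and 0.184 and 0.303 in those of cluster 5. RCI3 was high in both, at 118 and 96.9 in cluster 4 and 157 and 113 in cluster 5. These contrasts between clusters are descriptions.

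**Figure D2:**
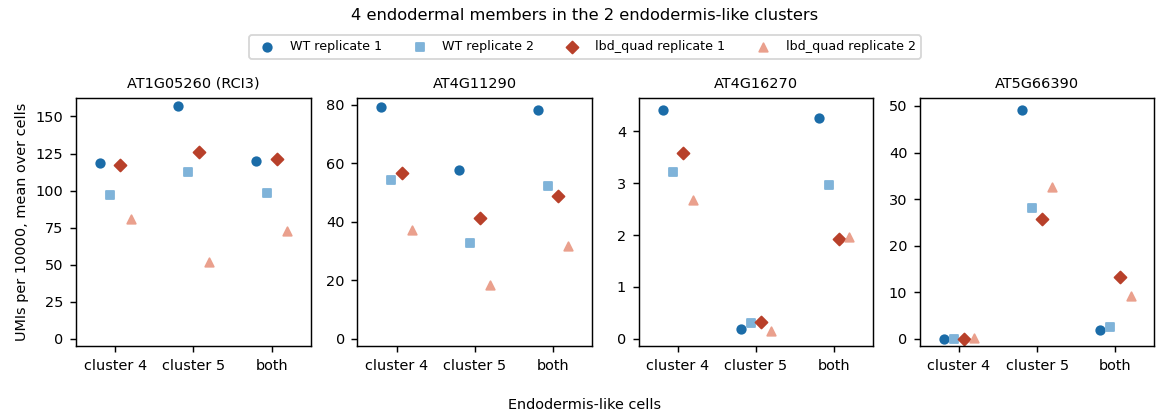
Level of 4 members (UMIs per 10000, mean over cells; 1 point per library) in the 2 endodermis-like clusters and in both together. PRX72 (AT5G66390) is near 0 in cluster 4 and at 25.8 to 49.1 in cluster 5 of every library, while its level over both clusters separates the genotypes.

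In cortex-like cells AT4G30170 led, at 60.2 and 54.4 in WT against 71.5 and 53.4 in the mutant, and it was also at 31.6 and 36.9 in WT hair-cell-like cells. AT5G15180 was more restricted, at 1.30 and 2.64 in WT cortex-like cells with 0.251 in the next class. It was a leading gene of cluster 8 within the cortex. AT3G28200 was at 4.98 and 3.76. In all, 7 of 27 tested members were higher in the cortex than the mean of the other 3 classes. This is close to the 24% of all genes, so that count says nothing particular of the family.

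Hair-cell-like cells were few in the mutant, 3 and 45 cells against 71 and 452 in WT, so members of this class were tested in WT alone, a choice made after seeing the data. There, 15 of 28 tested members were higher than the mean of the other 6 classes, against 15.4% of all genes. AT5G17820, a UPB1 target, was at 25.7 and 25.4 UMIs per 10000. This was 5.57 log2 units (SE 0.40) above the mean of the other classes, with a limma adjusted p of 1.32e-07. AT3G01190 was at 28.6 and 17.4, AT2G18980 at 10.8 and 19.3, and AT5G64100 at 11.7 and 17.1. AT1G30870 was at 3.07 and 8.82, and AT3G49960 at 1.31 and 3.25.

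Of the 6 members listed for root hair growth, 5 had a row. RHS19 (AT5G67400), a root hair specific gene, was at 0.690 and 2.58 in WT hair-cell-like cells and at 0.0323 and 0.303 over all WT cells. AT4G26010 was at 1.16 and 1.20. RHS18 (AT5G22410), with 45 UMIs in all 4 libraries, was at 0.0805 and 0.230 in WT hair-cell-like cells and at 0 in the other 6 classes of WT. AT5G39580 was highest in an unnamed cluster, as described below. AT1G05240 was not analysed here.

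In the vascular classes, AT3G21770 was at 28.0 and 17.5 in WT phloem-like cells and at 3.52 in the pericycle, the next class. In phloem-like cells it was 6.43 log2 units (SE 0.41; adjusted p 4.48e-10 by limma) above the mean of the other 3 classes. Its level was higher still in the unnamed cluster 17, led by CLE5 and PDLP7, at 61.6 and 42.7 in WT against 83.1 and 35.1 in the mutant, where lbd_quad replicate 1 had 1 cell. Prx37 was also high there, at 38.0 and 31.0 in WT. PRXR1 (AT4G21960) was broad, at 10.2 ± 0.676 (SD, n = 2) in WT phloem-like and 8.79 in pericycle-like cells, and it was the most abundant member of the xylem- and pericycle-like classes. AT1G71695 and AT2G34060 were highest in xylem-like cells, at 4.12 and 3.08 for AT1G71695 and 0.687 and 2.41 for AT2G34060. With WT alone, both passed, and AT1G71695 was 4.21 log2 units (SE 0.28; adjusted p 3.00e-08 by limma) above the mean of the other 6 classes. In xylem-like cells 3 of 28 members were higher, against 15.1% of genes, and in pericycle-like cells 2 of 28, against 13.6%.

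The phloem had 5 of 27 members higher, against 30.1% of genes. The family sum in xylem-, pericycle- and stem cell niche-like cells of WT was 23.6 ± 7.26, 23.7 ± 5.25 and 16.9 ± 7.09 (SD, n = 2), below the endodermis, hair-cell, cortex and phloem classes. PRXR1 was the most abundant member of stem cell niche-like cells too, at 7.20 and 2.31 in WT, where WT replicate 1 had 3 cells.

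Of the 7 members listed for lignification of stem or xylem, 6 had a row. Of the named classes, AT2G22420 was highest in pericycle-like cells, at 0.672 and 0.338 in WT, a class with 3 of 7 markers raised. PRX25 (AT2G41480), with 58 UMIs, and PRX52 (AT5G05340), with 36, were too sparse to place. PER4 (AT1G14540), PRX71 and PRX72 are described with the genotypes. AT1G05250 was not analysed here.

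Of the members in unnamed clusters, AT2G37130, AT3G01190, AT5G64100 and AT2G39040 were high in cluster 15, led by XTH17 and CER4, which held 47 and 178 WT and 10 and 108 lbd_quad cells. Its family sum was 321 ± 94.5 in WT and 347 ± 59.7 in the mutant (each SD, n = 2), above the mean of the endodermis-like class in both genotypes. AT3G01190 stood there at 113 and 40.2 in WT against 92.5 and 46.8 in the mutant. Cluster 15 had 2 markers of non-hair epidermis raised, 1 short of the 3 needed for a name.

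Over all cells, members were higher as well as lower in the mutant, and none passed the test. Of 29 members tested, 12 were higher and 17 lower in lbd_quad, and 0 of 29 were called in limma at an adjusted p of 0.05, where 0.389% of the 9511 genes were called. At an unadjusted limma p under 0.05 there were 15 members, 7 higher and 8 lower, against 8.12% of all genes. With limma's voom on library sums, 13 of 29 members were at that level, against 7.93% of genes, and 0 were called. The libraries of the genotypes did not overlap for 20 of the 29 members, against 37% of genes. The median log2 fold change of the tested members was -0.12, and that of all genes 0.01. The other 18 members with a row were below the filter and were not tested. Leaving out 1 library raised the count of members called to 10 and 8 when WT replicate 1 or 2 was left out, against 3.02% and 2.78% of all genes, and to 3 and 4 when lbd_quad replicate 1 or 2 was, against 1.73% and 1.88%. In these fits the lone library of a genotype is assumed to vary like the other pair.

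**Figure D3:**
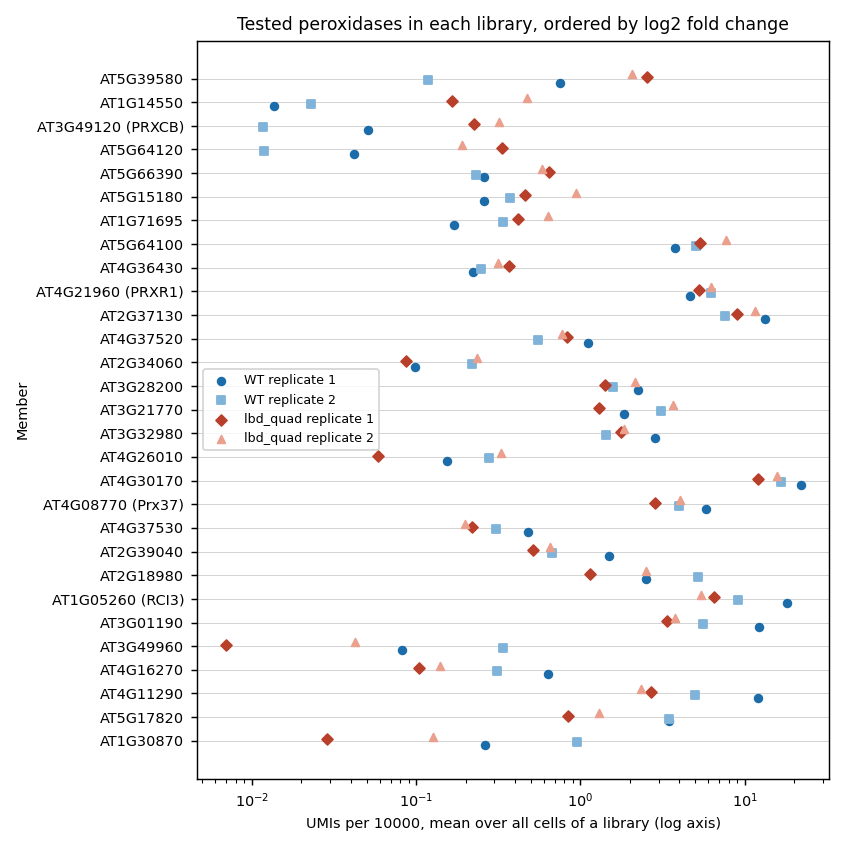
Level of each of the 29 tested members (rows, ordered by log2 fold change) in each of the 4 libraries, on a log axis of UMIs per 10000 averaged over all cells. In the top 5 rows both lbd_quad points lie to the right of both WT points, and in the bottom 5 rows to the left.

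The members with the largest positive log2 fold changes were low in WT. AT5G39580 was at 0.754 and 0.118 in WT against 2.55 and 2.06 in the mutant, a log2 change of 2.47 (SE 0.57; adjusted p 0.148 by limma). AT1G14550 was at 0.0136 and 0.0230 against 0.166 and 0.470. PRXCB, which encodes an apoplastic peroxidase of the oxidative burst that follows pathogen recognition, was at 0.0507 and 0.0118 in WT against 0.224 and 0.321 in the mutant. Its log2 change was 1.51 (SE 0.26; adjusted p 0.0700 by limma), and it passed at a limma adjusted p of 0.0213 when only cells of at least 2000 UMIs were kept. PRX71, a lignin-related peroxidase that responds to wall damage, was at 0.0419 and 0.0118 against 0.334 and 0.191. Both mutant libraries were above both WT libraries for each of these members, and for PER4, which was below the filter at 0.0266 and 0.0240 against 0.115 and 0.216. PRX72, known from lignin of the Casparian strip and of the stem, was at 0.260 and 0.231 in WT against 0.646 and 0.580 in the mutant, a log2 change of 1.04 (SE 0.24; adjusted p 0.155 by limma). PRXCA (AT3G49110), the second member of the burst list, had 12 UMIs in all.

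Apart from PRX72, these members were highest in unnamed clusters. AT5G39580 and PRXCB were highest in cluster 20 and PRX71 in cluster 25, and both clusters held more cells in each mutant library than in either WT library. Cluster 25, led by GRP5, LTP2 and LTPG1, held 31 and 6 WT cells against 235 and 367 lbd_quad cells. Cluster 20, led by PSK4 and CYP94B3, held 17 and 33 against 41 and 194. AT5G39580 and PRXCB were themselves among the 10 leading genes of clusters 25 and 20, although neither was used to form them. Within cluster 20, AT5G39580 was at 0.694 and 1.13 in WT against 11.2 and 9.93 in the mutant, and PRXCB at 0 and 0.110 against 3.63 and 2.52. AT1G14550 was highest in cluster 15, at 0 and 0.498 in WT against 0.525 and 5.44 in the mutant, and PER4 was highest there as well. Levels in WT cells of clusters 20 and 25 rest on few cells, and no test was made within them.

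**Figure D4:**
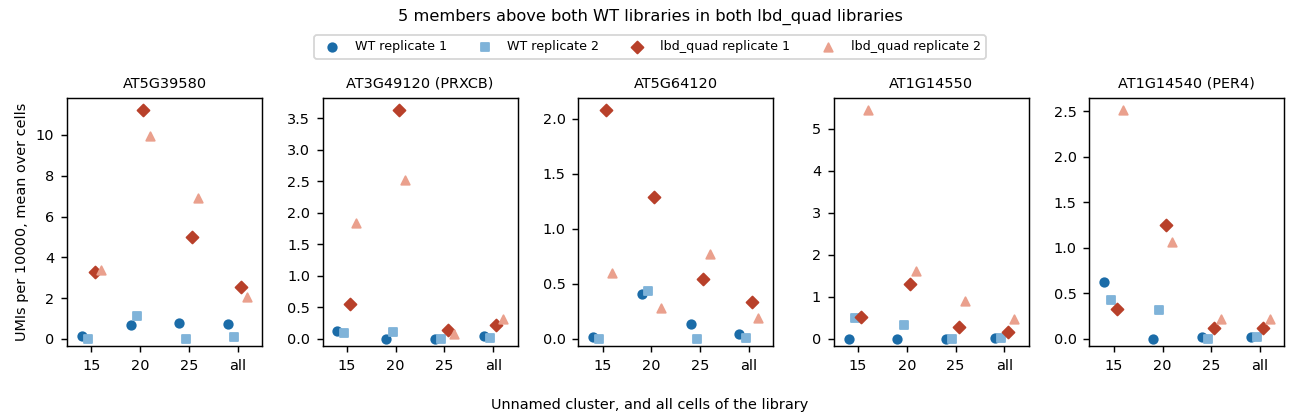
Level of 5 members (UMIs per 10000, mean over cells; 1 point per library) in unnamed clusters 15, 20 and 25 and in all cells. For AT5G39580 both lbd_quad points lie above both WT points in each cluster, while PER4 (AT1G14540) in cluster 15 has lbd_quad points at 0.331 and 2.52 on either side of the WT points.

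The largest negative log2 fold changes over all cells were those of members of the hair-cell and endodermis-like classes. AT1G30870 was at 0.262 and 0.958 in WT against 0.0286 and 0.126 in the mutant, a log2 change of -1.86 (SE 0.50; adjusted p 0.239 by limma). AT5G17820 was at 3.48 and 3.44 against 0.842 and 1.29, a log2 change of -1.64 (SE 0.31; adjusted p 0.0851 by limma). AT4G11290 was at 12.1 and 4.98 against 2.69 and 2.35, AT4G16270 at 0.638 and 0.311 against 0.104 and 0.140, and AT3G49960 at 0.0817 and 0.340 against 0.00693 and 0.0423. The WT libraries were above the mutant libraries in all 5. The 3 UPB1 targets, AT4G11290, AT4G16270 and AT5G17820, were all lower, with log2 fold changes of -1.59, -1.31 and -1.64, and UPB1 itself was at 2.64 and 1.46 in WT against 1.49 and 1.67 in the mutant. None of the 4 passed the test.

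A mean over all cells cannot tell fewer cells of a class from less RNA per cell, and the classes differed in size. Endodermis-like cells numbered 237 and 421 in WT against 41 and 174 in the mutant, or 13.6% and 8.32% of the cells against 4.86% and 6.05%. Hair-cell-like cells were 4.07% and 8.93% against 0.355% and 1.56%. When each library was given the same makeup over the 13 clusters that reached 10 cells in each library, which held at least 55.1% of the cells, AT5G17820 had a log2 fold change of -0.14, AT4G16270 of -0.30 and AT4G11290 of -0.54. AT5G39580 stood at 1.99, PRXCB at 1.83, AT1G14550 at 1.26 and PRX71 at 0.61. The hair-cell-like cluster was not among the 13. Nor were cluster 5, with 9 cells in WT replicate 1, and cluster 25, with 6 in WT replicate 2. PRX71 was highest in cluster 25, so its value here leaves out that cluster.

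Within classes, 8 differences between genotypes passed in the cortex-, endodermis-, phloem- and root cap-like classes, and with no filter on low values none of the 8 passed. In endodermis-like cells 3 of 24 tested members were called, against 1.15% of genes. PRX72 was higher, at 13.2 and 9.28 in lbd_quad against 1.92 and 2.58 in WT, a log2 change of 2.26 (SE 0.34; adjusted p 0.00637 by limma). Cluster 5, where PRX72 is found, made up 51.2% and 28.2% of endodermis-like cells in lbd_quad and 3.80% and 9.03% in WT. The summed level of the 11 endodermis markers moved with it, from 34.7 and 54.1 in WT to 207 and 128 in the mutant, CASP1 going from 6.36 and 18.2 to 67.4 and 41.3. With the 2 clusters weighted alike in every library, an alternative chosen after seeing the data, PRX72 had a log2 change of -0.35 (SE 0.34) and a limma adjusted p of 0.846. Cluster 5 then had a weight of 23.05%, which in WT replicate 1 rests on 9 cells. The call was also lost without WT replicate 2, at a limma adjusted p of 0.0521, and in cells of at least 2000 UMIs, at 0.135.

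AT3G21770, high in phloem-like cells and cluster 17, was at 3.51 and 1.42 in lbd_quad endodermis-like cells against 0.392 and 0.339 in WT, a log2 change of 2.34 (SE 0.42; adjusted p 0.0161 by limma). AT5G17820 was at 0 and 0.146 against 1.05 and 0.501, a log2 change of -2.41 (SE 0.51; adjusted p 0.0422 by limma). The levels of both lay below 4 UMIs per 10000, where free RNA from other cells can contribute. The library means were 1.85 and 3.09 in WT against 1.30 and 3.65 for AT3G21770, and 3.48 and 3.44 against 0.842 and 1.29 for AT5G17820. The part of free RNA was not tested. AT3G21770 lost its call without WT replicate 2 (limma adjusted p 0.124), at the coarser clustering (resolution 0.5; 0.0971), in cells of at least 2000 UMIs (0.115) and with the 2 clusters weighted alike (0.0668). The call of AT5G17820 held in 2 of its 12 repeats, those without a mutant library. In cells of at least 2000 UMIs its log2 change was -1.08 (SE 0.64; adjusted p 0.822 by limma), and in the other repeats that lost the call the adjusted p ran from 0.0545 with size factors to 0.650 with no filter.

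In cortex-like cells AT3G01190 alone was called of 16 members tested, against 0.751% of genes. It was at 15.2 and 9.01 in WT against 2.92 and 2.32 in the mutant, a log2 change of -2.13 (SE 0.36; adjusted p 0.0183 by limma). Every mutant value was less than the lowest WT value. With the 2 cortex-like clusters weighted alike the value was -2.48 with a limma adjusted p of 0.0177. Leaving out a library gave log2 fold changes of -2.50 to -1.75, and the limma adjusted p was 0.0681 or 0.0611 without WT replicate 1 or 2, and 0.0938 without lbd_quad replicate 2. The call was also lost at a finer clustering (resolution 2; 0.0916) and in cells of at least 2000 UMIs (0.0627). AT3G01190 also had log2 changes of -2.28 (SE 0.53; adjusted p 0.0703 by limma) in endodermis-like cells and -2.77 (SE 0.41; adjusted p 0.0806 by limma) in phloem-like cells, neither of which passed. Endodermis levels were 2.80 and 1.16 in WT against 0.124 and 0.593 in the mutant. Phloem levels were 1.01 and 1.24 against 0.0613 and 0.0980. At levels this low free RNA from other cells can contribute, and its part was not tested. The level over all cells fell too, from 12.1 and 5.57 in WT to 3.38 and 3.74 in the mutant.

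With both genotypes in the fit, 7 of 27 members were higher in the root cap than the mean of the other 3 classes, against 12.4% of genes. With WT alone it was 3 of 28, against 10.9%. Within root cap-like cells the genotypes differed in 4 members. AT2G37130 was at 62.3 and 210 there against 3.57 and 2.32 in WT, a log2 change of 5.26 (SE 0.62; adjusted p 2.92e-06 by limma). AT3G01190 was at 14.9 and 18.1 against 1.72 and 1.45, a log2 change of 3.30 (SE 0.61; adjusted p 0.00300 by limma), the opposite direction to the cortex. AT2G39040 was at 4.03 and 12.4 against 1.16 and 0.553, a log2 change of 2.99 (SE 0.67; adjusted p 0.0142 by limma). Prx37 had 53 UMIs in WT root cap-like cells and 0 in those of the mutant. Taking 3 UMIs over the mutant cells as the floor, it was at least 4.14-fold lower on summed UMIs. Its log2 change was -3.19 (SE 0.68; adjusted p 0.00885 by limma). This call was lost with 1 in place of 0.1 added before the log (limma adjusted p 0.0619) and with size factors (0.0610). It was also lost at resolution 2 (0.190) and in cells of at least 2000 UMIs (0.182). In all, 4 of 19 members tested were called, where 1.09% of genes were called and the median log2 fold change of all genes was -0.44.

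The mutant root cap-like class is small, with 21 and 26 cells against 93 and 243 in WT. At the coarser clustering (resolution 0.5) 38 of these 47 mutant cells fell in an unnamed cluster and 9 kept the name, so the class could not be tested there. All 4 calls were lost when either WT library was left out, while the log2 fold changes of AT2G37130 in these fits were 5.56 and 4.96. Without lbd_quad replicate 2, AT2G39040 had a limma adjusted p of 0.176. The family sum in root cap-like cells was 16.6 and 26.2 in WT against 88.4 and 250 in the mutant. AT2G37130 was at 14.9 and 10.7 in WT hair-cell-like cells, and at 65.8 and 63.5 in WT cells of the unnamed cluster 3, which held 143 and 255 WT cells and 0 and 11 mutant cells.

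**Figure D5:**
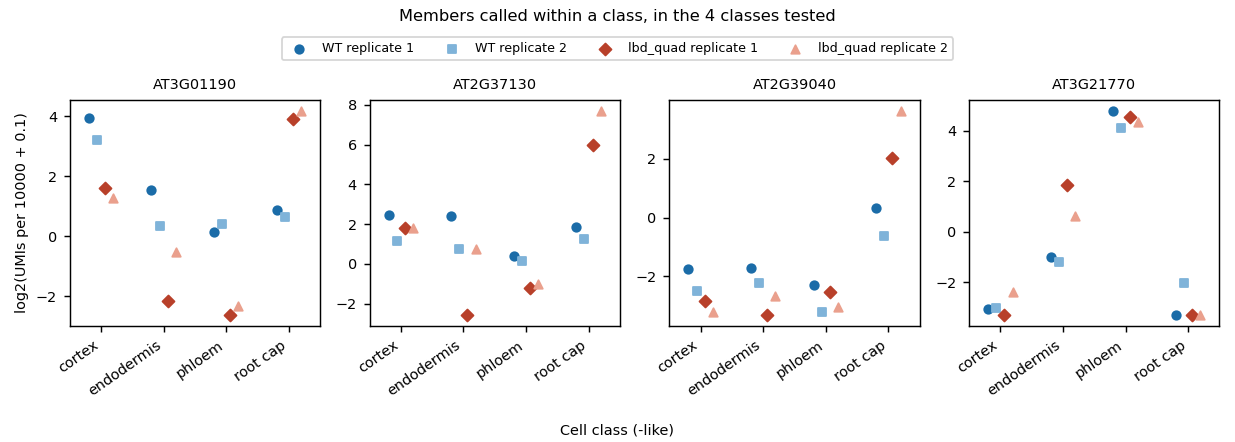
Level of 4 members, as log2(UMIs per 10000 + 0.1), in the 4 tested classes, with 1 point per library. AT3G01190 lies lower in lbd_quad in the cortex (2.92 and 2.32 UMIs per 10000 against 15.2 and 9.01) and higher in the root cap (14.9 and 18.1 against 1.72 and 1.45), and AT2G37130 and AT2G39040 are higher in lbd_quad in the root cap. In the endodermis and phloem AT3G01190 also lies lower in lbd_quad.

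The effect of genotype differed between classes for some members. There were 6 pairs of classes, with 27 members tested in each. The difference passed for 1 member between cortex and endodermis (0.175% of genes) and 0 between cortex and phloem (0.0765%). For cortex and phloem, 3 members had an unadjusted p under 0.05 in limma, against 5.16% of genes. The difference passed for 5 between cortex and root cap (0.787%) and 1 between endodermis and phloem (0.372%). It passed for 8 between endodermis and root cap (1.34%) and 5 between phloem and root cap (1.33%). The effect on AT3G01190 was lower in the cortex than in the root cap by a log2 difference of -5.43 (SE 0.65; adjusted p 0.000507 by limma), and the remaining values stand in the closing section.

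In phloem-like cells 0 of 16 members tested were called in limma, where 0.0339% of genes were, and 6 members had an unadjusted p under 0.05 against 6.98% of genes. AT3G21770 was at 23.7 and 20.3 in lbd_quad phloem-like cells, within the range of the WT libraries.

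Of the other genes of the pathway, none of the listed NADPH oxidases, laccases, monolignol synthesis genes, superoxide dismutases or catalases was called over all cells. There were 3 of 10 NADPH oxidases, 3 of 17 laccases, 14 of 15 monolignol genes and 6 of 8 superoxide dismutases and catalases above the filter, and 2, 2, 2 and 1 of them had an unadjusted p under 0.05. RHD2 (RBOHC), the NADPH oxidase of root hairs, was at 1.21 and 1.36 in WT against 0.441 and 0.612 in the mutant, with a limma adjusted p of 0.168. Within classes, the laccase LAC3 was the single listed gene to pass. It was at 3.42 and 1.93 in lbd_quad endodermis-like cells against 0.279 and 0.872 in WT, a log2 change of 2.14 (SE 0.46; adjusted p 0.0457 by limma). As for PRX72, this moved with the share of cluster 5, which had 9 cells in WT replicate 1. With the 2 endodermis-like clusters weighted alike, LAC3 had a log2 change of -0.30 (SE 0.32) and a limma adjusted p of 0.855. The call was also lost with no filter on low values, with size factors, with the replicate number as a block and without WT replicate 1. Resolutions 0.5 and 2 and cells of at least 2000 UMIs lost it too. It held at pseudocount 1 and without each of the other libraries.

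Several members lie side by side in the genome and share much of their sequence, so 3' reads of these pairs may be hard to divide. There were 12 pairs of neighbouring members, 7 of them with both genes in the table. Coding identity was 94.0% for Prx37 and AT4G08780, 92.7% for AT4G37520 and AT4G37530, and 90.6% for AT2G38380 and AT2G38390. AT1G05240 and AT1G05250, neither with a row, were 100% identical over 978 coding bases. AT5G19880 with AT5G19890 and AT5G58390 with AT5G58400 were also pairs without a row, at 71% and 73.6% identity. Neighbours could still differ in level: Prx37 had 23460 UMIs and AT4G08780 93. AT5G64100, AT5G64110 and PRX71 form a row of 3 genes, with 20621, 25 and 562 UMIs, and identities of 73.9% and 72.2% between neighbours. PER4 and AT1G14550, at 76.3% identity, were both above WT in both mutant libraries.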

How the data were processed

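Transcripts were captured from protoplasts with 10x Genomics 3' version 2 reagents, per the labels' protocols. Cell Ranger 7.0.1 and Seurat are named in the submitters' processing notes, and the genome build is not given in the sources used here. The authors deposited a matrix of natural log values, ln(1 + UMIs per 10000). Undoing the log gave UMIs of which 100% were whole within 0.01. The other 3315 of 13844 columns belong to no sample here and were not used.

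Scrublet marked 2 of 10529 cells, too few to rely on, and these were removed, so doublets may remain. Cells were clustered in scanpy 1.11.5 (2000 variable genes, 40 components, 15 neighbours, Leiden resolution 1) without the members or listed pathway genes. A cluster was named when at least 3 markers of a class were raised 2-fold and found in 10% of its cells. Means of UMIs per 10000 over cells were tested as log2(value + 0.1) with limma 3.58.1 in R 4.3.3, with a trend prior and Benjamini-Hochberg adjustment at 0.05 over all genes with a mean of at least 0.1. Fold changes on this scale understate changes of low genes. Each class was set against the mean log2 level of the other classes, so a member called higher can still be lower than 1 of them. Differences of the genotype effect between classes had the library as a random block. Members were named if among the 15 highest, the 5 largest log2 fold changes each way, called, on a known-role list, or highest in a class. The members and lists were chosen with earlier results of these data known.

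On simulated libraries, 64.5% of 200 genes changed by a log2 of 2 were called for the genotype comparison of 9511 genes, with 3 of the unchanged genes called. For the endodermis against the other classes it was 91%, and for the difference between cortex and endodermis, at a log2 of 4, it was 85.5%, both over 9151 genes.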

Additional observations from a re-analysis of the deposited data

Results flagged for a closer look

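The effect of genotype differed between pairs of cell classes for 7 members besides PRX72, in limma fits with 6 pairs of classes, each difference tested directly. In all, 20 differences passed an adjusted p of 0.05, of which 18 involve the root cap-like class with its 21 and 26 mutant cells. Each value below is the log2 fold change (lbd_quad minus WT) in the first class minus that in the second, on the scale of log2(UMIs per 10000 + 0.1).

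For AT2G37130 the difference was -5.28 for cortex minus root cap, -7.75 for endodermis minus root cap and -6.65 for phloem minus root cap. For AT3G01190 these were -5.43, -5.58 and -6.07, and for AT2G39040 -3.88, -4.02 and -3.01. For Prx37 (AT4G08770) they were 3.57, 3.36 and 3.26, and since it was at 0 in both mutant libraries of the root cap-like class these values depend on the pseudocount. For PRXR1 (AT4G21960) they were 2.72, 2.84 and 2.62, although its own log2 fold change in the root cap did not pass. For endodermis minus root cap, AT3G21770 differed by 2.99 and AT5G17820 by -3.57. PRX72 (AT5G66390) differed by -2.40 for cortex minus endodermis, 2.26 for endodermis minus phloem and 2.26 for endodermis minus root cap. Both values of 2.26 equal its log2 change within endodermis-like cells, and its phloem minus root cap difference was 0. In WT its next class was the cortex, at a mean of 0.0103. With so little transcript in the other classes a fall there could not show, and the values of 2.26 restate the endodermis change. The level of PRX72 in endodermis-like cells moved with the share of cluster 5, as given in the report. None of the 20 passed without WT replicate 1 or without WT replicate 2.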

How the results depend on the processing

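Direction held more firmly than the calls. Of 315 repeats of the higher level of a member in a class, 2 reversed and 23 lost the call. Of 92 repeats of the differences within a class, 1 reversed and 44 lost the call, and of 122 repeats of the differences between classes 73 lost it. With no filter on low values, 0 members were called by genotype in cortex, endodermis or root cap-like cells, and 0 genes over all cells. At pseudocount 1 there were 21 genes over all cells and 13 differences between classes. Size factors left 2 root cap calls. At resolution 0.5 the endodermis kept 1 call and the differences between classes 1, since the root cap could not be tested; at resolution 2 the cortex had 0 and the differences 12. Cells of at least 2000 UMIs gave 1 member over all cells and 0 in cortex and endodermis. With equal makeup 7 genes were called over all cells, and voom called 0. Equal makeup within a class, added after seeing the data, gave 0 calls in endodermis, 1 in phloem and 2 in root cap. The shares of all genes called in these fits are not given, so the counts describe the members only. PRX72 was at -0.35 in the endodermis. With WT alone, also added, 3 members were higher in phloem and 3 in root cap, where AT3G01190 (-0.84) and AT5G17820 (-0.71) reversed.

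The replicate numbers were not taken to pair the libraries, since the labels do not tie them and there are 2 pairs; the deviations of same-numbered libraries had a correlation of 0.514 over 9511 genes. With a replicate block, 506 genes (5.32%) and 13 members were called over all cells, and 5, 2, 2 and 8 members in cortex, endodermis, phloem and root cap, against 6.33%, 0.993%, 0.802% and 4.26% of genes.

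Leaving out 1 library gave 164 to 290 genes and 3 to 10 members over all cells, 0 to 1 in cortex, 0 to 9 in endodermis, 0 to 6 in root cap, 3 to 5 members higher in phloem, and 0 to 21 differences between classes. The cause of these changes was not tested. Depth limits members under 100 UMIs and classes with few mutant cells.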
